A study of Mus musculus with 2 samples.

Results

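The genes described here are the 10 mouse genes for presentation by class II molecules of the major histocompatibility complex (MHC): *H2-Aa*, *H2-Ab1*, *H2-Eb1*, *Cd74*, *H2-DMa*, *H2-DMb1*, *H2-DMb2*, *H2-Oa*, *H2-Ob* and *Ciita*. They were taken by symbol as the known genes of the pathway, with no threshold on their values, and all 10 were found among the 31053 genes of the count tables. Each captured transcript carries a molecular barcode (UMI), and the UMIs of these genes were counted over the cell types of inflamed mouse skin.

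Imiquimod (IMQ) is an agonist of Toll-like receptors that provokes psoriasis-like inflammation when a cream holding it is put on skin. Skin of C57BL/6 wild type mice was exposed to it on the ear over 5 days. Dermis and epidermis were taken apart, and each gave 1 droplet-based 3′ library. The labels give an age of 10 weeks, where the study's methods give a younger one, and neither says how many mice went into a library. By those methods the dermal library was sorted for live CD45+ cells and the epidermal library for all live cells, and both carry the same genotype and treatment, with no untreated skin beside them. The question put to the data here is which skin cell types carry transcripts of the class II pathway, and in what proportions to each other.

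Class II molecules are heterodimers of an α and a β chain that display peptides from endosomes to CD4+ T cells. The invariant chain, encoded by *Cd74*, fills the groove of the newly made dimer and leads it to the endosome. There the DM heterodimer exchanges the last fragment of the invariant chain for peptide, and the DO heterodimer binds DM and restrains it. The coactivator CIITA is the master switch of these genes: it binds no DNA itself and docks on factors that sit on the X and Y boxes of their promoters. In skin, Langerhans cells of the epidermis and dendritic cells of the dermis are the classic class II carriers, macrophages and monocytes carry it to a degree that changes with inflammation, and basophils, fibroblasts and keratinocytes have been studied as possible carriers.

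Of the 10 genes, 8 lie together on mouse chromosome 17. In the GENCODE M21 annotation of GRCm38 they occupy, with *H2-Eb2*, 249 kb from 34092340 to 34341412, in the order *H2-Oa*, *H2-DMa*, *H2-DMb2*, *H2-DMb1*, *H2-Ob*, *H2-Ab1*, *H2-Aa*, *H2-Eb1* and *H2-Eb2*. *H2-Aa* is the only gene among these on the minus strand. *Ciita* lies on chromosome 16, from 10480059 to 10528418, and *Cd74* on a further chromosome. *H2-DMa* overlaps *Brd2* and *Ciita* overlaps *Dexi*, in both cases on the opposite strand.

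Promoters of RefSeq (GRCm38.p6, 250 bases before to 50 after a start site) were found for 7 of the 10 genes. They are shown because the Y box, here the letters TGATTGG searched on both strands, was shared by genes for chains, for DM and for DO; no promoter was at hand for *H2-Ab1*, *Cd74* and *Ciita*. It was present in 6 of the 7 genes (*H2-Aa*, *H2-Eb1*, *H2-DMb1*, *H2-DMb2*, *H2-Oa* and *H2-Ob*) and in 7.23% of 32851 mouse promoters. An X box, written AACNNATG and held by 7.71% of promoters, lay upstream of a Y box within 40 bases on the same strand in *H2-Eb1*, *H2-DMb1*, *H2-DMb2* and *H2-Ob*. That pair of motifs was found in 20 of the 32851 promoters (0.0609%), *H2-Eb2* among them. Both motifs were chosen after the sequences had been seen, so the counts are descriptions. The 57 bases that end with the Y box are printed below from 5′ to 3′ on the gene's own strand, with X and Y boxes in capitals; in *H2-Aa* the upstream capitals mark TGACGTCA, the palindrome bound by CREB factors, which 1.55% of promoters hold.
H2-Aa (chr17:34287867-34287923, minus strand): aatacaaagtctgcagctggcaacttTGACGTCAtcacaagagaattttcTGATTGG
H2-Eb1 (chr17:34305756-34305812, plus strand): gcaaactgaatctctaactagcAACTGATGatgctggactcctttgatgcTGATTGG
H2-DMb2 (chr17:34145107-34145163, plus strand): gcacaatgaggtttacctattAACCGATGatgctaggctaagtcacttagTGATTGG
H2-Ob (chr17:34238796-34238852, plus strand): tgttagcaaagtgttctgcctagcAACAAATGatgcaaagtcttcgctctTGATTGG
H2-Oa (chr17:34092284-34092340, plus strand): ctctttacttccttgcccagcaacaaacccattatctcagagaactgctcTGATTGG

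The gap between X and Y box was 20 bases in *H2-Eb1*, 21 in *H2-DMb2* and 18 in *H2-Ob*. In *H2-DMb1* the X box began at -92 and the Y box at -63 from the start site. Its stretch is not printed because more than 30 of its bases lie in an annotated exon. No X box with these letters was found in the windows of *H2-Aa* and *H2-Oa*, and neither motif in the windows of *H2-DMa*, which says only that these letters are not there.

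After cells with fewer than 200 genes or more than 10% mitochondrial UMIs were left out, 4747 dermal and 4173 epidermal cells remained. The dermal cells held 40392866 UMIs, with a median of 7010 per cell, and the epidermal cells 105033363, with a median of 25918. The libraries shared 45 cell barcodes, 30 of them among the cells kept. Cells were assigned to a type where they met a gate of marker genes that holds none of the 10 genes, which placed 3541 dermal cells (74.6%) and 3807 epidermal cells (91.2%). A type name below means only that a cell met that gate. Although the dermal library was sorted for CD45+ cells, it held 296 cells with the collagen genes of fibroblasts, 31 endothelial and 24 Schwann cells. In each type with at least 20 cells, 4 or more of the markers were present in 50% or more of the cells. Among those that were not, *Zbtb46* was found in 22% of type 2 dendritic cells and *Trac* in 13% of epidermal T cells, of which 93.5% had *Trdc*, a γδ T cell gene. Each tissue had 1 library, so no test between types or tissues was possible. Intervals, here and in all that follows, are exact at 95% and reflect the error of counting alone, and a difference between the tissues cannot be told apart from one between the libraries.

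The class II transcripts were concentrated in few cells. Summed over the 10 genes, the dermal library held 440533 UMIs, or 10906 UMIs per 1000000 (CPM), and the epidermal library 171127, or 1629 CPM. In the dermis, 23.7% of them (23.5 to 23.8) came from the 125 dendritic cells of types 1 and 2 and mature form, 18.1% from 956 macrophages and 14.7% from 943 monocytes. In the epidermis, 142 Langerhans cells, 3.4% of the cells, held 56.6% (56.4 to 56.8), and 3018 keratinocytes, 72.3% of the cells, held 16.3%. Cells that met no gate held a further 26% in the dermis and 11.6% in the epidermis.

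Langerhans cells stood highest, at 78342 CPM over the 10 genes. Type 2 dendritic cells followed at 66295 CPM, type 1 at 60672 CPM and mature dendritic cells at 41936 CPM in the dermis and 49582 CPM in the epidermis. A wide step in these sums separated them from dermal macrophages at 8255 CPM and monocytes at 7819 CPM, with intermediates of both at 11163 CPM. Single cells crossed this step: the 95th percentile of dermal macrophages was 38043 CPM, beside a median of 37694 CPM in mature dendritic cells. The gates also left out 62 dermal cells that met both a macrophage or monocyte and a dendritic gate, at 28441 CPM. The 34 epidermal macrophages, at 24713 CPM, were above their dermal counterparts, while the 38 epidermal monocytes, at 4100 CPM, were below theirs. The 10 richest cells held 86.1% of the class II UMIs of these macrophages and 88.5% of those of these monocytes. Lower still came fibroblasts (2359), Schwann cells (2197) and mast cells (2088), whose counting intervals overlapped from neighbour to neighbour, then neutrophils (1741), basophils (1295) and T cells (1206), the last pair also overlapping. Natural killer cells at 822 CPM and endothelial cells at 765 CPM closed the dermal order. Epidermal basophils (375 CPM), T cells (316 CPM) and keratinocytes (284 CPM) were lower than every dermal type with at least 20 cells. Some dermal sums rested on few cells: 1 Schwann cell had 178 class II UMIs and 1 mast cell 104. The 10 richest cells held 88% of the class II UMIs of Schwann cells and 54.5% of those of mast cells. Medians over cells with at least 1000 UMIs gave another order. Neutrophils had 1453 CPM, basophils 1208, mast cells 1166 and T cells 994. Natural killer cells had 881, fibroblasts 824, Schwann cells 784 and endothelial cells 759.

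**Figure D1:**
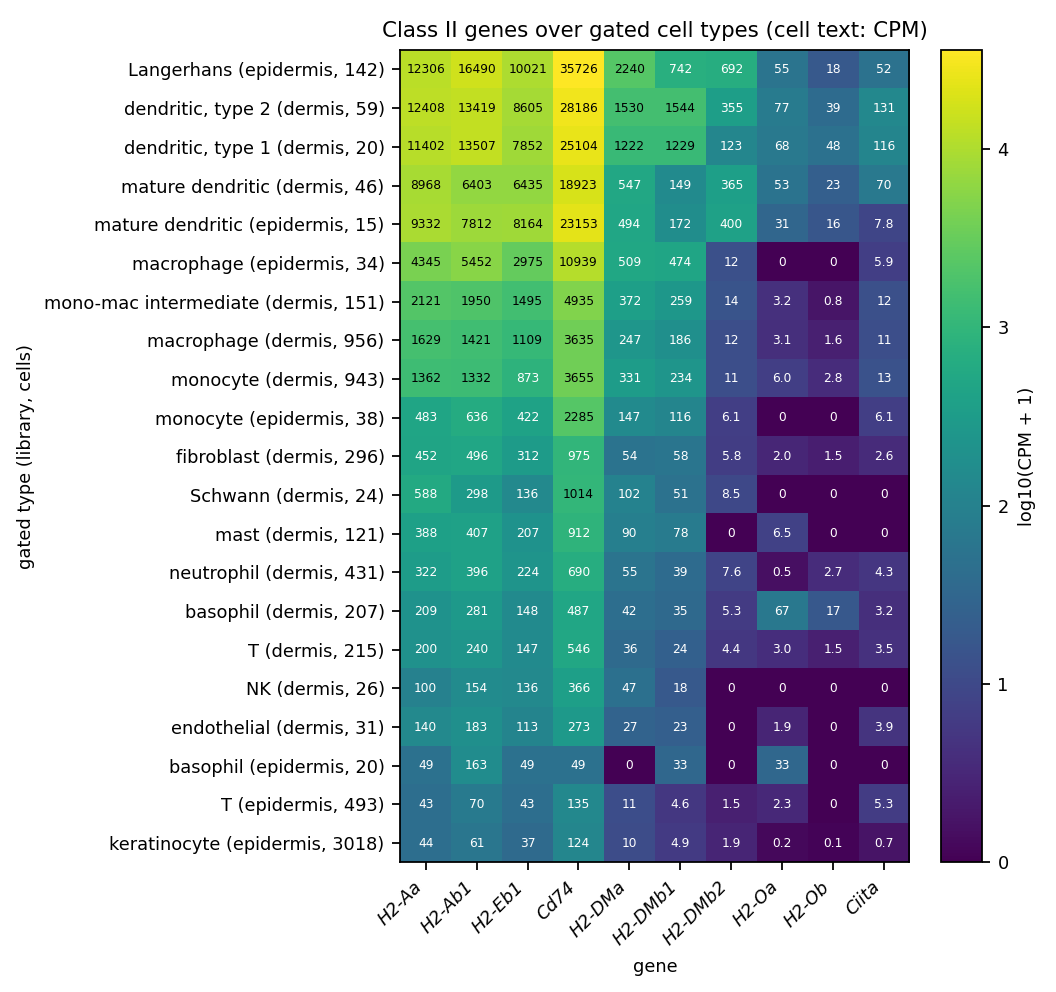
CPM of each of the 10 genes (columns) in each gated cell type (rows, with library and number of cells), colour on a log10(CPM + 1) scale and the value written in each field. The first 5 rows, Langerhans and dendritic cells, are highest in the chain genes and *Cd74*. In the dermis, *H2-DMb1* lies at 149 CPM in mature dendritic cells and 186 CPM in macrophages, with overlapping counting intervals. In the epidermis, *Ciita* has 1 UMI in mature dendritic cells and 1 in macrophages. *H2-Oa* and *H2-Ob* appear again in dermal basophils.

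The α and β chain genes kept the same broad order. *H2-Aa*, the α chain of the A molecule, stood at 12306 CPM (12112 to 12503) in Langerhans cells, 12408 CPM in type 2 and 11402 CPM in type 1 dendritic cells, against 1629 CPM in dermal macrophages, 1362 CPM in monocytes and 44 CPM in keratinocytes. *H2-Ab1*, its β chain, followed with 16490, 13419, 13507, 1421, 1332 and 61 CPM in the same types. *H2-Eb1*, the β chain of the E molecule, followed with 10021, 8605, 7852, 1109, 873 and 37.2 CPM. Over the 20 pairs of type and library with at least 20 cells, log2(CPM + 1) of these genes correlated with each other at Pearson's r of 0.98 to 0.99; the points of a library share its depth and its free RNA. No gene for the α chain of the E molecule was described, since C57BL/6 mice do not make one.

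*Cd74*, the invariant chain gene on chromosome 18 (60803848 to 60812652), was the most abundant of the 10 in every type plotted apart from epidermal basophils. It reached 35726 CPM (35394 to 36061) in Langerhans cells, 28186 CPM in type 2 dendritic cells and 18923 CPM in dermal mature dendritic cells, and lay at 3635 CPM in macrophages and 3655 CPM in monocytes. In UMIs, which count molecules whatever their length, there were 2.9 of *Cd74* per UMI of *H2-Aa* in Langerhans cells, 2.27 in type 2 dendritic cells, 2.23 in macrophages, 2.68 in monocytes and 2.11 in mature dendritic cells. The ratio thus ran from 2.11 to 2.9 over these types, whose levels of *Cd74* differed far more. A *Cd74* UMI was also found in 87.9% of dermal T cells, at a median depth of 7368 UMIs, and in 85.8% of keratinocytes, at 32273 UMIs. These cells are not known for high class II expression, so a share of cells with a UMI was not read as expression, and levels in CPM are used below.

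Every one of the 10 genes was at least 2-fold higher in the pooled dermal dendritic cells than in macrophages. Of the 10269 genes with at least 20 UMIs, 9.92% were that much higher and 13.7% that much lower. The summed level was 6.83-fold higher (6.76 to 6.89). The chains and *Cd74* lay close together, from 6.66-fold for *Cd74* to 7.7-fold for *H2-Ab1*. *H2-DMa* and *H2-DMb1*, subunits of the peptide exchanger, differed less, by 4.5-fold (4.24 to 4.77) and 5.25-fold (4.91 to 5.6). *H2-DMb2*, *H2-Oa* and *H2-Ob* differed most, by 26.6-fold (21.7 to 32.8), 21.5-fold (14.3 to 33.2) and 22.7-fold (12.8 to 42.8), and *Ciita* by 9.33-fold (7.35 to 11.9). The pooled result did not hold for each type. *H2-DMb1* stood at 1544 CPM in type 2 and 1229 CPM in type 1 cells. In mature cells it stood at 149 CPM, against 186 CPM in macrophages, with overlapping intervals.

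Between dermal macrophages and monocytes, none of the 10 passed 2-fold, where 11.7% of 10807 genes were higher and 5.95% lower. The summed level was 1.06-fold (1.04 to 1.07) that of monocytes. *H2-Eb1* was 1.27-fold higher in macrophages and *H2-Aa* 1.2-fold, whereas *H2-DMa* lay at 0.746 (0.706 to 0.788) and *H2-DMb1* at 0.796 (0.746 to 0.849) of the monocyte level. *Cd74* was level at 0.995 (0.979 to 1.01). *H2-Oa*, with 30 against 50 UMIs, came closest to the limit at 0.513 (0.315 to 0.822). It passed 2-fold under 5 of the 9 other settings tried, and *H2-Ob* under 2. Of these settings, a 3-fold limit, a minimum of 50 UMIs and the sum of *H2-DMb1* and *H2-DMb2* could not have made *H2-Oa* pass.

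**Figure D2:**
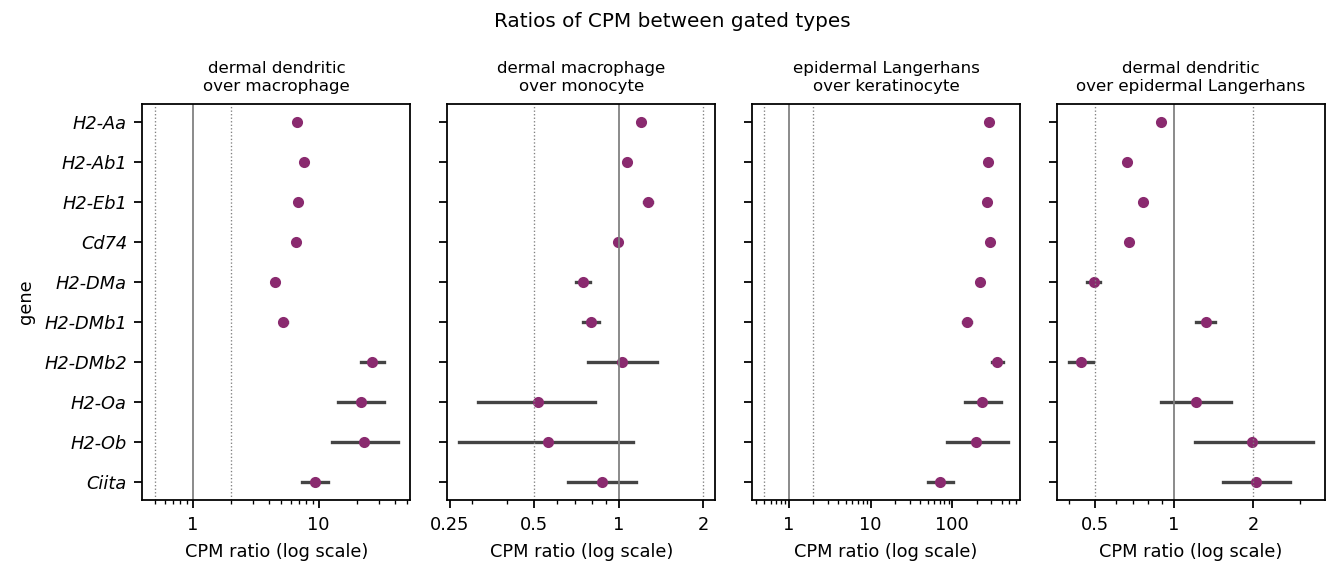
Ratio of CPM between 4 pairs of gated types (panels) for each of the 10 genes (rows), on log axes, with exact 95% intervals; the solid line marks equal levels and the dotted lines 2-fold. All genes lie right of 2-fold in the panel of pooled dermal dendritic cells over macrophages, from 4.5 for *H2-DMa*. They also do in that of Langerhans cells over keratinocytes, from 71.4 for *Ciita*, while macrophages over monocytes straddle 1.

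In the epidermis, all 10 genes were at least 2-fold higher in Langerhans cells than in keratinocytes, where 24.4% of 12984 genes were higher and 23.2% lower. The summed level differed 276-fold (272 to 279.5). The part of free RNA in the keratinocyte level was not tested. The chains and *Cd74* differed by 269-fold to 289-fold, *H2-DMb2* by 356-fold (304 to 419) and *H2-DMb1* by 150.0-fold (134 to 168). *Ciita* stood apart with 71.4-fold (50.1 to 102), from 64 UMIs in Langerhans cells and 71 in the far more numerous keratinocytes.

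Langerhans cells were also compared with the dermal dendritic cells, pooled over types 1 and 2 and mature form. These types differ among themselves, so the ratios depend on their mix. The sum was lower in dermal dendritic cells, at 0.719 (0.713 to 0.726) of the Langerhans level. *Ciita* was 2.05-fold higher (1.54 to 2.76) in the dermal cells and *H2-Ob* 1.98-fold (1.2 to 3.36), while *H2-DMa* lay at 0.496 (0.468 to 0.525) and *H2-DMb2* at 0.444 (0.399 to 0.494). So 1 gene passed 2-fold upwards and 2 downwards, where 20.8% of 7428 genes were higher and 11% lower. *H2-DMb1* went the other way from its neighbour *H2-DMb2*, at 1.32 (1.21 to 1.43). Without the richest cell of each type *H2-DMa* no longer passed, with stricter gates *Ciita* did not, and under a mitochondrial limit of 5% neither did. *H2-Ob* passed upwards under that limit, with likely doublets removed and without the richest cells.

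Among dendritic cells of the dermis, the mature form held less class II RNA than type 2 cells, 0.633 (0.623 to 0.642) over the sum. These types were not exclusive in their markers. Of the 46 mature cells, 13 (28.3%) had at least 3 type 2 markers. Of the 59 type 2 cells, 4 (6.78%) had at least 3 mature markers. *H2-Ab1* (0.477), *H2-DMa* (0.358) and *H2-DMb1* (0.0962) passed 2-fold downwards and none upwards, where 18% of 5143 genes were lower and 9.43% higher. *H2-DMb1* fell from 1544 CPM (1458 to 1634) in type 2 cells to 149 CPM (121 to 181) in mature cells. *H2-DMb2* did not share in this, at 355 CPM (315 to 400.0) and 365 CPM (321 to 415). Type 1 and type 2 cells had ratios between 0.796 and 1.25 in all genes but *H2-DMb2*, which lay at 0.347 (0.252 to 0.469) in type 1 cells and was the 1 gene lower by 2-fold, where 12.4% of 4728 genes were lower and 7.57% higher.

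The proportion of the neighbouring genes *H2-DMb1* and *H2-DMb2*, which both encode β chains of DM, set the cell types apart. *H2-DMb2* made up 71.1% (65.9 to 75.9) of their 339 UMIs in dermal mature dendritic cells and 69.9% of 73 UMIs in epidermal ones. It made up 48.3% (45.9 to 50.6) of 1772 UMIs in Langerhans cells, 18.7% (16.8 to 20.8) in type 2 and 9.12% (6.87 to 11.8) in type 1 dendritic cells. In macrophages it was 5.85% (4.84 to 7), from 112 UMIs against 1802 of *H2-DMb1*, and in monocytes 4.59% (3.72 to 5.59), from 93 against 1934. Mature dendritic cells of both libraries were at the top of this range and macrophages and monocytes at its foot.

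The pattern was also visible cell by cell. Of the 142 Langerhans cells, 132 had UMIs of both genes, and among the 123 with at least 5 UMIs the median share of *H2-DMb2* was 50%, with quartiles of 37.5% and 64%. The median was 80% in 21 mature dendritic cells of the dermis, 15.5% in 54 type 2 cells, 5.9% in 20 type 1 cells and 0% in 112 macrophages and 125 monocytes. Single cells varied widely, from 0% to 87% in type 2 cells and from 9.09% upwards in Langerhans cells.

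The sequences of this pair bear on the measurement. Of the 451 stretches of 50 bases in the last 500 bases of *H2-DMb1* transcripts, 92 (20.4%) also occur in *H2-DMb2*, and 62 of 457 (13.6%) from *H2-DMb2* occur in unrelated genes such as *Zw10*. Reads from such stretches fit more than 1 gene, so the levels of both are uncertain to that extent. The other 8 genes shared no such stretch. How the counting treated these reads in each type was not tested.

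**Figure D3:**
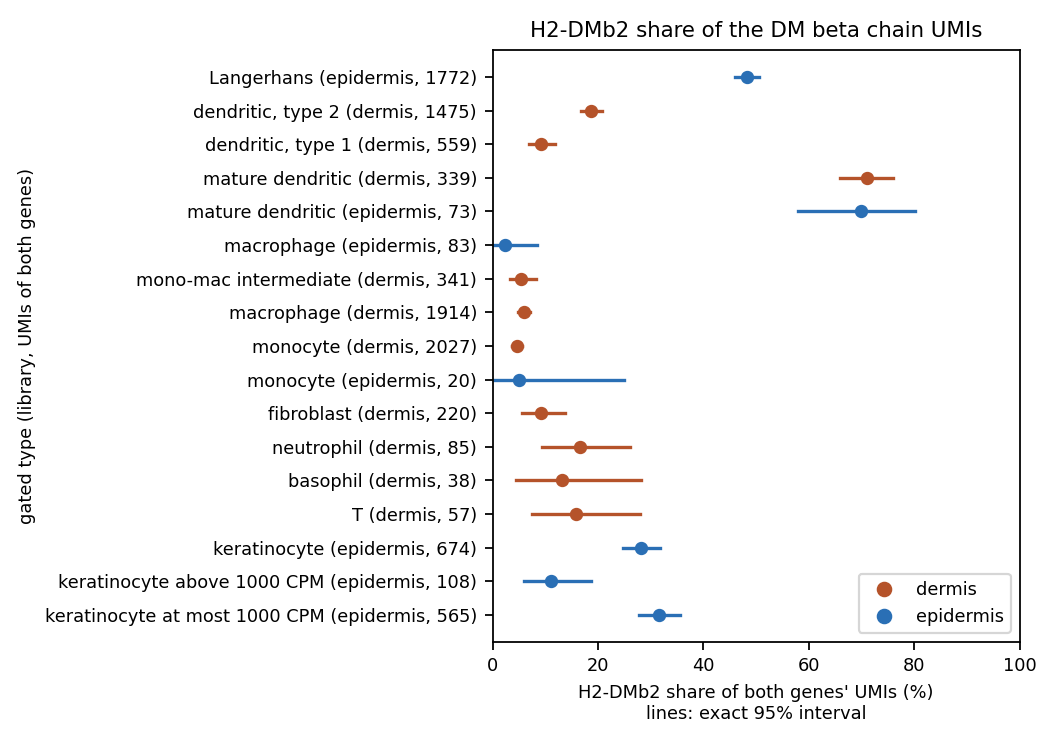
Share of *H2-DMb2* in the UMIs of *H2-DMb1* and *H2-DMb2* (x axis, percent, lines exact 95% intervals) by gated type, with the library and the number of UMIs of both genes in brackets. Mature dendritic cells sit near 70% in both libraries, Langerhans cells at 48.3%, and macrophages and monocytes below 6%.

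*H2-Oa* and *H2-Ob*, the subunits of DO, were scarce outside dendritic and Langerhans cells, with 1 exception. *H2-Oa* stood at 77.3 CPM (59 to 99.5) in type 2, 67.8 CPM in type 1 and 53.1 CPM in mature dendritic cells and 55 CPM (42.7 to 69.7) in Langerhans cells. Macrophages had 3.1 CPM, monocytes 6.04 CPM, T cells 2.96 CPM, neutrophils 0.544 CPM and keratinocytes 0.235 CPM. *H2-Ob* was lower, from 48.4 CPM in type 1 and 38.6 CPM in type 2 dendritic cells to 1.55 CPM in macrophages.

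The exception was the dermal basophil, with 66.8 CPM of *H2-Oa* (51.4 to 85.5), an interval that overlapped those of type 1, type 2 and mature dendritic cells. The 63 UMIs came from 49 of 207 cells (23.7%), 37 with 1 UMI and 12 with 2 or more, and no cell had more than 3. For background, 2.79% of T cells had a UMI at a median depth of 7368, and 0.232% of neutrophils at 3692, beside a median of 4357 in basophils. When cells were thinned to 1000 UMIs, 5.37% of basophils (2.71 to 9.4) still had one, against 0.53% of macrophages and none of the neutrophils. *H2-Ob* was also present, at 17 CPM (9.7 to 27.6) in 15 basophils, against 2.72 CPM in neutrophils and 1.48 CPM in T cells.

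The rest of the pathway did not accompany DO in these cells. Basophils lay below neutrophils over the sum (0.744, 0.696 to 0.795), and per 1000 UMIs of *H2-Aa* there were 319.8 of *H2-Oa* in basophils, against 1.69 in neutrophils, 1.9 in macrophages and 6.23 in type 2 dendritic cells. Of the 8 genes with enough UMIs, *H2-Oa* (123-fold, 21.2 to 4925, 63 against 1 UMI) and *H2-Ob* (6.24-fold, 2.18 to 21.8) were higher than in neutrophils by 2-fold and none was lower, where 24.3% of 6150 genes were higher and 16% lower. *Ciita* had 3 UMIs in all basophils, 3.18 CPM.

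Basophils with and without an *H2-Oa* UMI were compared for markers of other cells. Cells that also met a dendritic, B cell or monocyte gate had been left out, which limited these markers beforehand. The summed basophil markers were 12952 and 11428 CPM, and those of type 2 dendritic cells 12.1 and 14.4 CPM, with 3 of 6 detected in each. The markers detected were not the same. In cells with an *H2-Oa* UMI they were *Cd209a*, *Flt3* and *Clec10a*, from 3 UMIs in all. In the others they were *Clec10a*, *Mgl2* and *Kmo*, from 10 UMIs, with *Cd209a* and *Flt3* at 0. Of the 6 markers of B cells, the type best known for DO, *Cd79b* and *Ighm* were detected in both, at a sum of 12.1 and 15.8 CPM, while *Cd79a*, *Ms4a1* and *Pax5* were at 0. Of the type 1 dendritic markers, 2 of 6 were detected in each, at 12.1 and 13 CPM, with *Xcr1* and *Clec9a* at 0. They were *Flt3* and *Itgae* in cells with an *H2-Oa* UMI and *Wdfy4* and *Itgae* in the others, from 3 and 9 UMIs. The part of these few dendritic UMIs was not tested. Of the mature dendritic markers, 5 and 4 of 6 were detected, at 261 and 215 CPM, of which 245 and 196 CPM were *Tmem123*. The summed monocyte markers were higher in the cells with a UMI, at 3427 against 1904 CPM, and their part in the result was not tested. The 20 epidermal basophils had 2 UMIs of *H2-Oa* (32.6 CPM, 3.95 to 118) and none of *H2-Ob*, too few to set beside the dermal cells.

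**Figure D4:**
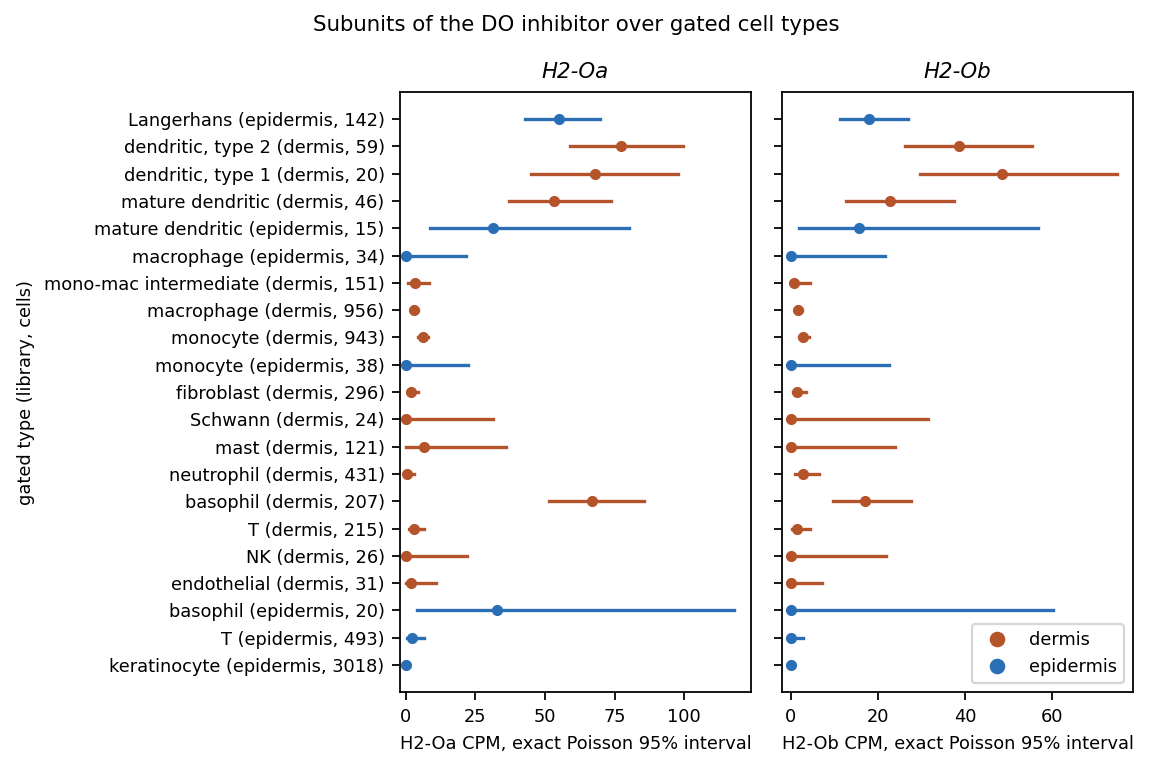
CPM of *H2-Oa* (left) and *H2-Ob* (right) by gated type, points for the value and lines for exact Poisson 95% intervals, coloured by library. Dermal basophils, at 66.8 and 17 CPM, lie among the dendritic and Langerhans cells, while macrophages, T cells and neutrophils have 3.1, 2.96 and 0.544 CPM of *H2-Oa*.

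*Ciita*, the coactivator, was detected at low counts throughout. It stood at 131 CPM in type 2, 116 CPM in type 1 and 69.7 CPM in mature dendritic cells, 51.8 CPM in Langerhans cells, 13 CPM in monocytes and 11.4 CPM in macrophages. A UMI was found in 61.6% of dermal dendritic cells, 28.9% of Langerhans cells, 8.58% of macrophages, 8.7% of monocytes and 2.22% of keratinocytes. Thinned to 1000 UMIs a cell, these shares were 8%, 7.04%, 0.954%, 1.28% and 0%, the last allowing up to 0.125% by its interval. The order of dermal dendritic cells above macrophages and monocytes was kept, while dendritic and Langerhans cells had overlapping intervals at that depth (3.9 to 14.2 and 3.43 to 12.6). Thinned to 2000 UMIs they did not overlap, at 20.2% (13.5 to 28.3) in dermal dendritic and 6.52% (3.03 to 12) in Langerhans cells.

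Cells with a *Ciita* UMI held more class II RNA where class II varied. In macrophages, 82 cells with a *Ciita* UMI stood at 23347 CPM against 6433 CPM in 874 without (3.63-fold, 3.57 to 3.68). In monocytes the values were 22336 and 6092 CPM (3.67-fold, 3.61 to 3.73). The ratio was 1.45 (1.43 to 1.47) in the pooled dermal dendritic cells and 1.06 (1.04 to 1.07) in Langerhans cells. Among the pooled types, the mature form had the lowest class II sum, at 41936 CPM. It also had the lowest *Ciita*, at 69.7 CPM, with an interval that overlapped that of the next type. The part of cell type in the pooled ratio was not tested. Depth moved with the presence of a *Ciita* UMI. The median was 11566 UMIs in macrophages with a *Ciita* UMI and 8116 in those without, and the part of depth was not tested.

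Macrophages and monocytes were not uniform. Per cell, among cells with at least 1000 UMIs, macrophages had a median of 2369 CPM over the 10 genes with quartiles of 1251 and 10953, and monocytes a median of 1788 with quartiles of 1110 and 6245. Above 10000 CPM lay 254 of 943 macrophages (26.9%) and 181 of 938 monocytes (19.3%). The richest 10% of the cells held 55.1% of the class II UMIs of macrophages and 63.2% of those of monocytes. By contrast, all 142 Langerhans cells, all 59 type 2 and all 20 type 1 dendritic cells lay above 10000 CPM, and 38 of 46 mature dendritic cells did.

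**Figure D5:**
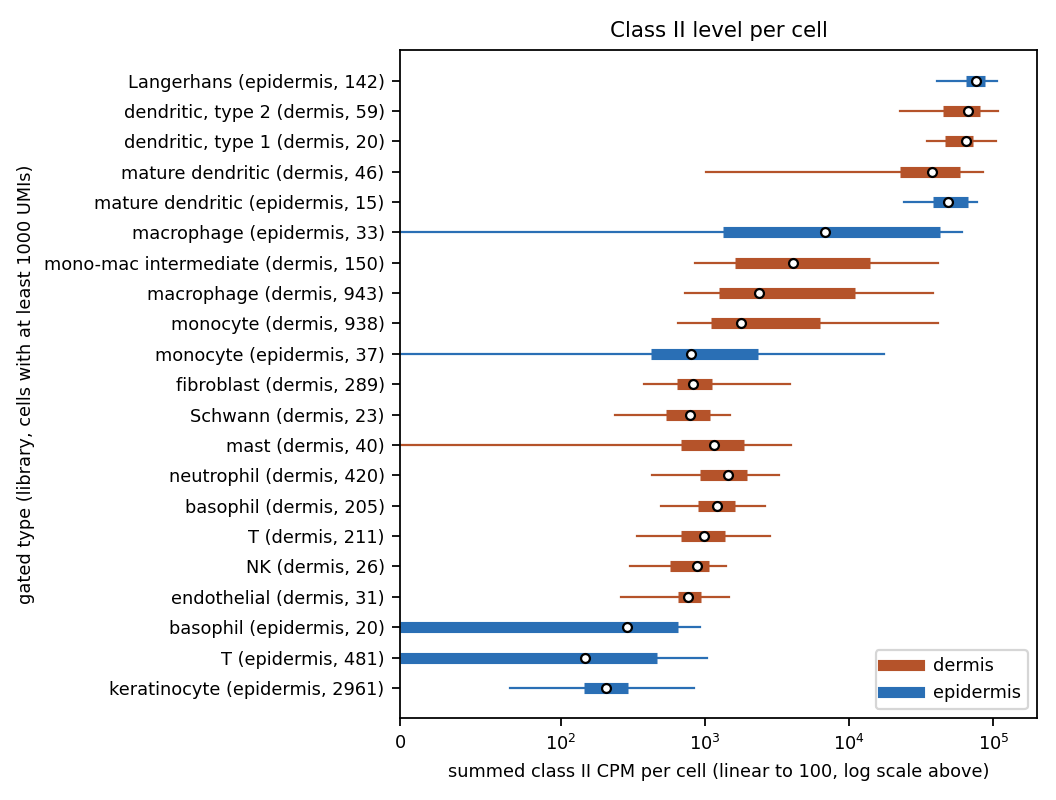
Summed CPM of the 10 genes per cell by gated type, for cells with at least 1000 UMIs (number in brackets): the point is the median, the thick bar spans the quartiles and the thin line the 5th to 95th percentile; the axis is linear to 100 and logarithmic above. Langerhans and dendritic cells have medians of 37694 to 76066 CPM, while macrophages and monocytes have medians of 2369 and 1788 CPM and 95th percentiles of 38043 and 41025 CPM.

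The class II-rich macrophages differed from the other macrophages in marker genes that did not enter this division by class II level. The macrophage, monocyte and dendritic markers had entered the gates, however. Cells that also met a dendritic gate were left out, which limited the dendritic markers of macrophages and monocytes beforehand. The summed macrophage markers were 8315 CPM above 10000 class II CPM, 11261 CPM between 2000 and 10000 and 14581 CPM below. Markers of resident-type macrophages (*Mrc1*, *Cd163*, *Folr2*, *Lyve1*, *Cbr2*, *F13a1*) went the same way, with 484, 708 and 1154 CPM, and those of monocytes the other, with 865, 813 and 538 CPM. Type 2 dendritic markers stood at 143, 108 and 122 CPM, all 6 markers being detected but *Zbtb46*, which was at 0 in the rich cells, against 1305 CPM in type 2 dendritic cells themselves. In monocytes those markers stood at 146, 39.9 and 26.6 CPM and the monocyte markers at 3398, 5681 and 9361 CPM. The median depths of the macrophage groups were 7942, 7141 and 10432 UMIs. The part of depth or of other cells in these levels was not tested.

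The same contrast appeared when macrophages were divided by marker. The 207 with at least 4 of the 6 resident-type markers had 5303 CPM over the class II genes, and the 373 with at most 1 had 11415 CPM (0.465, 0.456 to 0.474). Their median depths were 13030 and 6733 UMIs. Cycling cells were lower as well. Macrophages with at least 3 cycling markers stood at 0.441 (0.43 to 0.452) of the level of the others, and the 12 such monocytes at 0.279 (0.251 to 0.309). Depth again moved with the division, at a median of 17330 against 7787 UMIs in macrophages, and its part was not tested.

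In fibroblasts, the class II RNA came largely from a few cells: 10 of 289 cells lay above 10000 CPM, and the 10 richest cells held 61.9% of the class II UMIs. These 10 had 9079 CPM of fibroblast markers, against 20244 CPM in the others. Type 2 dendritic markers stood at 133 CPM in the 10, from 24 UMIs, against 14.2 CPM. Macrophage markers had overlapping intervals, at 572 CPM (467 to 694) in the 10 and 518 CPM (493 to 543) in the others. The median depth of the 10 was 17268 UMIs, against 10052. The part of depth or of other cells was not tested. The other 279 fibroblasts had 191 CPM of *H2-Aa* and 393 CPM of *Cd74*, beside 200.4 and 546 CPM in T cells. Among T cells, the 94 with at least 3 regulatory markers had 1613 CPM and the others 913 CPM (1.77-fold, 1.63 to 1.92). By gene the ratio was 2.15 for *Cd74* and 1.35 for *H2-Eb1*, and the intervals of the DM genes included equal levels. A single T cell held 234 class II UMIs, and the 10 richest held 31.2% of those of the type. The part of such cells or of depth was not tested.

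Keratinocytes held class II UMIs at a low level, spread unevenly. Of 2961 keratinocytes with at least 1000 UMIs, 107 (3.61%) lay above 1000 CPM, with a median of 1747 and a highest value of 43954 CPM, and held 22.8% of the class II UMIs of the type. The limit of 1000 CPM was set after the values were seen, and the cells nearest to it had 1002 and 995 CPM. Their keratinocyte markers summed to 28736 CPM, against 30438 CPM in the others, at median depths of 24735 and 32860 UMIs.

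The proportion of DM β chain genes in these 107 cells was apart from that of Langerhans cells. *H2-DMb2* made up 11.1% (5.87 to 18.6) of their DM β chain UMIs, against 31.5% (27.7 to 35.5) in the other keratinocytes and 48.3% in Langerhans cells. Macrophages had intervals that overlapped that of the 107 cells, at 2.41% (0.293 to 8.43) in the epidermis and 5.85% (4.84 to 7) in the dermis. So did dermal type 1 dendritic cells at 9.12% (6.87 to 11.8), type 2 at 18.7% (16.8 to 20.8) and fibroblasts at 9.09% (5.64 to 13.7). Dermal neutrophils (9.31 to 26.1), T cells (7.48 to 27.9) and basophils (4.41 to 28.1) overlapped as well. The share in the 107 cells, from 12 *H2-DMb2* UMIs, thus singled out none of these types. A single cell held 671 of the 6318 class II UMIs of the 107. *Cd207*, the langerin gene that defines Langerhans cells, stood at 2.27 CPM in the 107 cells, 1.67 CPM in the other keratinocytes and 1128 CPM in Langerhans cells. Per 1000 UMIs of *H2-Aa* there were 7.77 of *Cd207* (2.84 to 17), 45 (38.2 to 52.8) and 91.6 (86.7 to 96.8) in the same groups. Keratinocytes with a *Cd207* UMI had 1.46-fold (1.4 to 1.52) the summed class II level of those without. The part of free RNA in the class II UMIs of keratinocytes was not tested. The Langerhans gate itself needed 2 UMIs of *Cd207*, and cells that met both gates were left out. The gates thus set the contrast with Langerhans cells in part beforehand. *Ciita*, itself 1 of the summed genes, stood at 4.55 CPM (2.35 to 7.94) in the 107 cells and 0.62 CPM (0.472 to 0.799) in the other keratinocytes. The full Langerhans marker list stood at 134 and 66.9 CPM, and that of macrophages at 91.7 and 83.4 CPM, with all 6 markers of each detected in both groups, and their part was not tested.

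Among other genes of presentation, 5 lists were counted. All 6 costimulatory genes (*Cd80*, *Cd86*, *Cd40*, *Icosl*, *Cd274*, *Pdcd1lg2*) were at least 2-fold higher in the pooled dermal dendritic cells than in macrophages. Of all tested genes, 9.92% were that much higher. *Icosl*, the ligand of ICOS, was higher by 11.1-fold (7.58 to 16.5). All 6 were also higher in mature than in type 2 dendritic cells, *Cd40* by 5.76-fold (3.49 to 10), where 9.43% of all tested genes were higher. The pooled result need not hold for each type. *Cd40* stood at 141 CPM in mature, 24.5 CPM in type 2 and 19.4 CPM in type 1 cells, against 18.9 CPM in macrophages. In Langerhans cells 5 of the 6 were higher than in keratinocytes, where 24.4% of all tested genes were higher. *Cd86*, a ligand of CD28, stood at 176 against 0.48 CPM. Against Langerhans cells, dermal dendritic cells were higher in *Icosl*, 29.1-fold (7.81 to 244, 87 against 2 UMIs), in *Cd274*, 30.8-fold (8.28 to 258, 92 against 2 UMIs), and in *Cd80*. Of all tested genes, 20.8% were higher there.

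Of 15 genes for factors that act on class II promoters or on *Ciita*, 2 were at least 2-fold higher in dermal dendritic cells than in macrophages and none lower. Of all tested genes, 9.92% were higher and 13.7% lower, so the count of higher factors was near that share. The higher factors were *Irf8*, a factor of myeloid development, with 562 against 80.7 CPM, and *Irf4* with 10.3 against 3.3 CPM. The genes of the complex that binds the X box differed by less, 1.57-fold for *Rfx5*, 1.79-fold for *Rfxap* and 1.19-fold for *Rfxank*. Against Langerhans cells, 7 of 13 tested were higher in dermal dendritic cells, where 20.8% of all tested genes were higher. Among the 7 were *Irf1*, an interferon-induced factor, by 18.1-fold (5.96 to 89.4, 81 against 3 UMIs) and *Ifngr1*, a chain of the interferon-γ receptor, with 97.9 against 17 CPM.

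Of 9 endosomal genes tested, 5 were at least 2-fold lower in dermal dendritic cells than in macrophages (*Ctsl*, *Ctsb*, *Ctsd*, *Lgmn* and *March8*) and *Cd83* was higher, by 7.52-fold. Of all tested genes, 13.7% were lower and 9.92% higher. *Lgmn*, an endosomal asparagine-specific protease, stood at 147 against 1402 CPM, while *Ctss*, the protease that trims the invariant chain, stood at 1209 against 1644 CPM. *March1*, a ligase that marks class II molecules for turnover, had 1.52 CPM in mature and 27 CPM in type 2 dendritic cells (0.0561, 0.00136 to 0.349), and the surface protein gene *Cd83* 224 and 171 CPM. Of the 9 class I genes, 4 (*Tap1*, *Tap2*, *Psmb8*, *Psmb9*) were higher in dendritic cells than in macrophages and none lower, beside the same 9.92% and 13.7% of all tested genes. *B2m* was at 0.775 (0.751 to 0.8). *H2-Eb2*, the class II β chain gene next to *H2-Eb1*, had 15.1 CPM in dermal dendritic cells and 0.103 CPM in macrophages (147-fold, 24.2 to 5996, 28 against 1 UMI).

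The genes most like the class II genes over the 20 pairs of type and library were found among 12289 genes by Pearson's r of log2(CPM + 1) with the sum of *H2-Aa*, *H2-Ab1*, *H2-Eb1* and *Cd74*. *Cst3*, which encodes the protease inhibitor cystatin C, led at 0.93, followed by *Ctsz*, a cathepsin, at 0.90, *Kmo* and *Pkib* at 0.89, *Irf5* at 0.87, *Necap2* at 0.86, *Pgf*, *Cd40* and *Mgl2* at 0.84 and *Gsg1* at 0.82. *Kmo* and *Mgl2* are markers of the type 2 dendritic gate. *Cst3* had 23056 CPM in Langerhans cells, 20568 CPM in type 1 and 4719 CPM in type 2 dendritic cells, and 2192 CPM in macrophages, so its peak among dermal cells lay in type 1 cells. Among the 10 genes themselves, *H2-DMb1* was at 0.95, *H2-DMa* at 0.94, *H2-DMb2* at 0.89 and *Ciita* at 0.84. *H2-Ob* at 0.70 and *H2-Oa* at 0.48 were the least alike, and correlated with each other at 0.83.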

How the data were processed

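Per the labels and the study's methods, reads of both 3′ libraries (chemistry v3) were counted with Cell Ranger on mm10, and the authors deposited whole-number UMI counts per gene and cell. Counts were kept for cells with at least 200 genes and at most 10% mitochondrial UMIs. A gate needed at least 3 detected markers and a mean scaled score of at least 0.25 (0.45 for keratinocytes), and 2 UMIs of *Cd207* for Langerhans cells; these thresholds were set after the data were seen. Cells meeting gates of several families of types were left out (417 dermal, 33 epidermal), which together with a Scrublet alternative is how doublets were treated. Within a family the highest score decided. Langerhans cells and all dendritic types formed 1 family, and macrophages and monocytes another. Cells that met both the macrophage and the monocyte gate, with scores less than 0.15 apart, were named intermediates. UMI sums carry exact Poisson, shares Clopper-Pearson and ratios exact conditional intervals, for counting error only. A gene counted as higher or lower past 2-fold in CPM with at least 20 UMIs over both types, a sum of 0 being replaced by 3 counts. Python 3.11.15, numpy 2.4.6, scipy 1.17.1, pandas 2.3.3 and scanpy 1.11.5 were used, and the fold rule was tested on simulated data.

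The 10 genes, the marker lists and 43 pathway genes (40 found) were chosen with earlier results of these data known. Named genes were the 10, those lists, and the 10 genes with at least 100 UMIs most correlated with the class II sum.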

Additional observations from a re-analysis of the deposited data

How the results depend on the processing

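Depth and the single library per tissue limit all values: intervals cover counting error only, and low genes (*Ciita*, *H2-Oa*, *H2-Ob*) rest on few UMIs per cell. No paired analysis was possible because there is a single library of either tissue. Of 155 alternatives, 99 left a value within its counting interval or a count within 1.5 times, 55 moved it further and 1 reversed it. The settings were a mitochondrial limit of 5%, at most 5000 genes, removal of the top Scrublet scores (180 dermal and 139 epidermal cells), 1 more marker in each gate, the mean over cells of CPM, leaving out the richest cell of each type, and, chosen after seeing the data, giving ungated cells the type of their 15 nearest neighbours.

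In the order mitochondrial limit, gene limit, Scrublet, stricter gates and neighbours, the dermal share of dendritic cells was 25.2, 23.4, 25, 19.3 and 35.4%, that of monocytes 15.4, 14.9, 15, 14.3 and 20.5%, and the epidermal share of Langerhans cells 57.2, 60.8, 58.4, 57.5 and 65.5%. The share of macrophages was 17.9, 18, 18.5 and, with neighbours, 25.9%. The ratio of dermal dendritic cells to macrophages was 6.74 with stricter gates, 6.35 as the mean over cells, 6.94 without the richest cells and 6.07 with neighbours. That of macrophages to monocytes was 1.03 with the mitochondrial limit, 1.04 with stricter gates and 1.13 as the mean over cells, and it reversed to 0.994 (0.985 to 1) with neighbours. That of Langerhans cells to keratinocytes was 285 with the mitochondrial limit, 240.0 with the gene limit, 289.9 with Scrublet, 219 as the mean over cells, 281 without the richest cells and 265 with neighbours. That of dermal dendritic to Langerhans cells was 0.734 with the mitochondrial limit, 0.703 with stricter gates, 0.729 as the mean over cells, 0.727 without the richest cells and 0.751 with neighbours.

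The number of genes past 2-fold between macrophages and monocytes was 1 with the mitochondrial limit, the gene limit, Scrublet or without the richest cells (*H2-Oa*) and with stricter gates (*H2-Ob*), and 2 with neighbours (both), in place of 0. Between dermal dendritic and Langerhans cells it was 0 at 3-fold, 1 with neighbours (*H2-DMb2*), 2 with the mitochondrial limit, with stricter gates or with *H2-DMb1* and *H2-DMb2* summed, and 4 with Scrublet, in place of 3. Thinned to 1000 and 2000 UMIs, the share of cells with a *Ciita* UMI was 8 and 20.2% in dermal dendritic cells, 0.954 and 2.09% in macrophages, 1.28 and 3.02% in monocytes, 7.04 and 6.52% in Langerhans cells and 0 and 0.273% in keratinocytes. The causes were not tested. *H2-Oa* in basophils ranged from 66.1 to 70.5 CPM, the *H2-DMb2* share from 47.1 to 48.4% in Langerhans, 67.5 to 72.9% in mature dendritic cells and 5.61 to 6.23% in macrophages, and the keratinocytes above 1000 CPM from 3.44 to 4.35%.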

Other observations

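Cells that met no gate or gates of several families were set aside in the report but held much class II RNA. Of the 789 dermal cells without a gate, 47 lay nearest to type 2 dendritic cells and had 63988 CPM over the 10 genes, which is 8.66% of the class II UMIs of the library, and 18 lay nearest to type 1 cells with 54982 CPM. A further 245 lay nearest to macrophages with 14936 CPM and 199 nearest to monocytes with 22534 CPM, both above the gated cells of those types. In the epidermis, 33 ungated cells lay nearest to Langerhans cells, with 70383 CPM and 8.88% of the class II UMIs. Among cells that met several gates, the 62 dermal cells with gates of both the monocyte or macrophage and the dendritic kind had 28441 CPM, and the 165 with monocyte or macrophage and neutrophil gates had 2912 CPM.

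Small groups gave single values. The 5 plasmacytoid dendritic cells of the dermis had 22196 CPM, the 2 B cells 17476 CPM and the 5 dermal cells that met the Langerhans gate 12620 CPM. Of the gate's markers, *Ltc4s* was found in 0% and *Mfge8* in 40% of these last 5 cells. The epidermal Langerhans cells had them in 88.7% and 100%, so the 5 need not be cells of the same type.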
